A study of Mus musculus with 12 samples.

Results

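Of 12 RNA-seq libraries made from mouse blood or spleen, of the wild type (WT) or without nuclear myosin 1 (NM1 KO, here KO), 6 are described here. They are those in which the globin genes Hba-a1, Hba-a2, Hbb-bs and Hbb-bt, which encode the oxygen carrier of red cells, together held 25% of counts or less. Of these globin-poor libraries, 3 are labelled blood (WT 03, WT 04 and KO 04) and 3 are labelled spleen (WT 01, KO 01 and KO 04). Values of single libraries are listed in these orders below. Globin took 5.89%, 5.07% and 4.89% of counts in the libraries labelled blood, against 0.846%, 2.95% and 1.62% in those labelled spleen. The nearest library beyond the limit, blood WT 01, had 48.9%, and the other 5 globin-rich libraries lay between 49.3% and 56.1%. Because globin chose the libraries, it was left out of every library size and test.

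All mice were C57/Bl6 of 8 months, either WT or NM1 KO, with no other allele, agent or time point named in the labels. NM1 is a nuclear form of the class I myosin encoded by Myo1c. Blood was drawn from the submandibular vein into a lysis reagent, and for spleen a piece of about 5 mm3 was cut at the organ's tip after fat and connective tissue had been cleared away. How the knockout was made is not given in the sources used here. The labels do not say whether each library came from a separate mouse, nor whether equal numbers in blood and spleen mark the same mouse, so the p-values measure the spread between these libraries only.

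The spleen is a filter of the blood. Its red pulp removes old red cells through macrophages and, in mice, is also a site where erythroid precursors divide and mature, while its white pulp holds B cells, T cells and, after stimulation, germinal centres and plasma cells. Circulating blood holds mature red cells and reticulocytes in great excess, together with platelets and white cells, and few cells that divide. In bulk RNA such as this, fewer cells of a type and less RNA per cell cannot be told apart.

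Markers that belong to spleen tissue were present under both labels. Vcam1 is an adhesion molecule of red pulp macrophages and endothelium. It stood at 279, 405 and 197 CPM (counts per M counts, globin left out) in the libraries labelled blood, against 342, 251 and 411 CPM in those labelled spleen. In the 6 globin-rich libraries it lay between 0 and 1.72 CPM. Spic, the transcription factor of red pulp macrophages, stood at 46.4, 58.7 and 47.2 CPM under the blood label, against 54.3, 48.2 and 59.8 CPM under the spleen label. Stab2, a scavenger receptor of the sinus lining, stood at 63.8, 84.1 and 61.2 CPM against 87.5, 74.1 and 92.0 CPM. These genes overlapped between the labels and were far below these levels in every globin-rich library. Ppbp, a platelet chemokine abundant in blood, went the other way. It stood at 89.1, 88.5 and 48.3 CPM under the blood label, against 71.8, 109 and 118 CPM under the spleen label, while the globin-rich libraries held 660 to 2304 CPM. The data therefore go against the blood label of these 3 libraries, which are called the libraries labelled blood throughout. They go equally against the spleen label of the 3 globin-rich libraries that carry it, in which Vcam1 stood at 0.870, 1.22 and 0 CPM, Stab2 at 1.31, 2.69 and 0 CPM and Ppbp at 1997 to 2304 CPM. Whether labels were exchanged between libraries was not tested.

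Depth differed little between the labels. Total counts were 23.1 M, 24.7 M and 23.9 M in the libraries labelled blood, against 25.2 M, 28.2 M and 25.2 M in those labelled spleen, and 9.32 M to 12.1 M in the globin-rich ones. A count of 0 in a globin-poor library allows up to 0.109 to 0.138 CPM, which covers counting error only. Reads in ribosomal RNA genes took 0.174%, 0.173% and 0.180% of counts under the blood label, against 0.0865%, 0.121% and 0.108% under the spleen label, and so did not overlap. Reads in mitochondrial genes took 1.18%, 1.55% and 1.24% against 1.47%, 1.52% and 1.57%. The part of either share in the results was not tested.

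The question was which genes differ between the labels among the globin-poor libraries, whose globin shares themselves did not overlap between the labels. Lists of red cell and cell division genes stood higher in the libraries labelled blood, and most plasma cell and T cell genes stood lower. Few single genes passed the test, however. Over 17094 genes, edgeR's quasi-likelihood test with genotype as a covariate called 7 genes higher (0.041%) and 2 lower (0.0117%) in the libraries labelled blood at a Benjamini-Hochberg adjusted p under 0.05, which is 9 genes in all (0.0527%). At an unadjusted p under 0.05 there were 5084 genes (29.7%), and at an adjusted p under 0.1 there were 1976 higher (11.6%) and 742 lower (4.34%). The smallest adjusted p that was not called, 0.0565, was shared by 245 genes. DESeq2 on the same counts called 2077 higher (12.9%) and 751 lower (4.66%), and limma-voom called 1129 higher (6.6%) and 147 lower (0.86%). Without spleen KO 01 edgeR called 2029 higher and 520 lower, without blood KO 04 it called 634 and 14, and without blood WT 03 it called 28 and 5. Without blood WT 04 or without spleen KO 04 it called 0 higher and 1 lower, and without spleen WT 01 it called 1 and 2. With genotype as a term, the label effect rests on KO libraries alone without spleen WT 01, and on WT libraries alone without blood KO 04. Only the 9 called genes are described below with a verb of change, and every other gene is given as values.

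Scaling mattered for the lower side. The 3 libraries of each label did not overlap in CPM for 1542 genes that were higher (9.02%) and 4227 that were lower (24.7%) under the blood label. After TMM scaling the numbers were 2621 (15.3%) and 2087 (12.2%). The median log2 fold change, blood label over spleen label, was -0.03 over all genes with TMM and -0.33 with library size alone. Medians of lists below are with TMM unless library size is named, and are to be read against the value of all genes on the same scale.

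**Figure D1:**
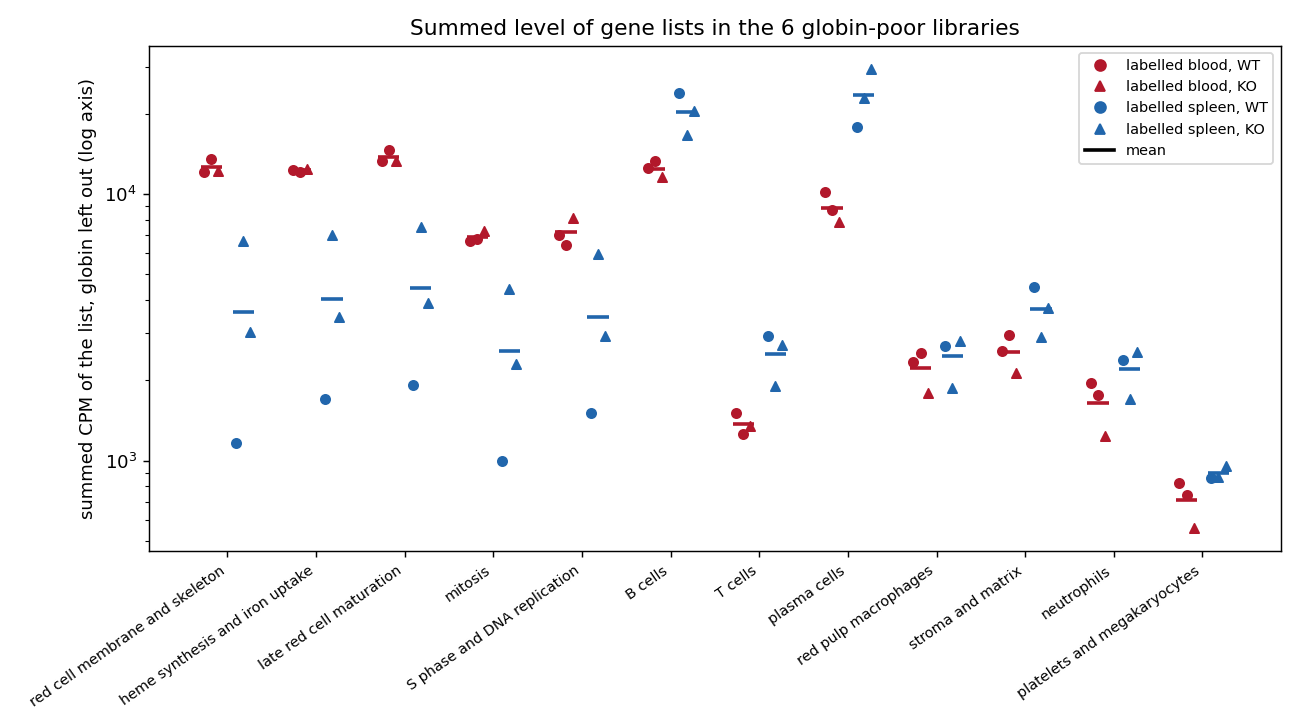
Summed CPM (globin left out, log axis) of 12 gene lists in each of the 6 globin-poor libraries, with libraries labelled blood in red left of those labelled spleen in blue, WT as circles, KO as triangles and the group mean as a bar. The red cell, heme, late red cell, mitosis and S phase sums lie higher in every library labelled blood. The B cell, T cell, plasma cell and platelet sums lie lower in every one, and the macrophage, stroma and neutrophil sums overlap.

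Genes of the red cell membrane and its skeleton, summed over 20 genes, held 12105, 13533 and 12254 CPM in the libraries labelled blood, against 1167, 6655 and 3047 CPM in those labelled spleen. The libraries labelled blood lay close together, whereas those labelled spleen were spread in the same order as their globin share, with WT 01 lowest and KO 01 highest. Slc4a1, the anion exchanger band 3, stood at 3571, 3916 and 3382 CPM against 260, 1641 and 719 CPM. Its log2 fold change was 2.96 ± 0.68 (SE), with an edgeR adjusted p of 0.0631. It was higher in all 3 libraries labelled blood without overlap, and did not pass the test.

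Of the 20 genes, 19 did not overlap and were higher under the blood label, beside 9.02% of all genes tested, and 1 did not overlap and was lower. edgeR called 0 of them at 0.05. All 20 had an adjusted p under 0.1, from 0.0575 to 0.0883, beside 11.6% of all genes higher and 4.34% lower. DESeq2 called 19 higher and 1 lower, beside 12.9% and 4.66% of all genes. With limma-voom 19 were called higher, beside 6.6% of all genes. The median log2 fold change was 2.86, beside -0.03 over all genes. It was 4.06 between the WT libraries alone and 1.54 between the KO libraries alone, as values with no test. Leaving out spleen WT 01 gave 1.56, and leaving out blood KO 04 gave 4.06. With genotype as a term, the first omission leaves the label effect to the KO libraries and the second to the WT libraries. These values therefore repeat those by genotype and are not a separate check.

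Other members of that list followed the same pattern. Ackr1, a chemokine-binding receptor known on red cells as the Duffy antigen, had the smallest p, with 67.9, 50.2 and 59.3 CPM against 8.85, 28.5 and 14.5 CPM (log2 fold change 2.38 ± 0.45, edgeR adjusted p = 0.0575). Cd59a, which blocks the last step of complement attack, stood at 61.3, 40.2 and 61.2 CPM against 14.5, 36.4 and 20.1 CPM. Rhd, an erythrocyte blood group protein, stood at 935, 874 and 919 CPM against 66.3, 420 and 192 CPM. Ank1, the ankyrin that ties the membrane to its skeleton, had a log2 fold change of 2.79 ± 0.70. The exception was Slc2a1, a glucose transporter made by many cell types, with 33.1, 32.5 and 30.5 CPM against 71.0, 46.7 and 57.4 CPM.

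Heme synthesis and iron uptake supply the globin chains with their cofactor. The list summed to 12361, 12066 and 12380 CPM under the blood label, against 1700, 7006 and 3453 CPM under the spleen label. Ppox, the last enzyme but one of the heme pathway, stood at 386, 382 and 405 CPM against 83.9, 227 and 129 CPM. Its log2 fold change was 1.97 ± 0.35 (edgeR adjusted p = 0.0565). Slc25a37, the importer of iron into mitochondria of erythroid cells, stood at 2253, 2525 and 2194 CPM against 285, 1066 and 561 CPM. Slc11a2, which carries iron out of endosomes, stood at 162, 153 and 180 CPM against 48.9, 119 and 74.9 CPM. None of the 3 genes overlapped between the labels.

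Among the remaining members, Tfrc, the transferrin receptor, had 1326, 1248 and 1138 CPM against 126, 747 and 339 CPM. Alas2, the erythroid enzyme that starts heme synthesis, had 983, 1402 and 998 CPM against 125, 579 and 309 CPM. The globin-rich libraries held 40545 to 57680 CPM of Alas2, so its level under the blood label was well below that of globin-rich libraries of either label. Of the 20 genes of the list, 16 were higher without overlap (9.02% of all genes) and 17 were higher at an adjusted p under 0.1 (11.6% of all genes). DESeq2 and limma-voom each called 17 higher, beside 12.9% and 6.6% of all genes. The median log2 fold change was 2.39, and it was 1.42 without spleen WT 01, which leaves the label effect to the KO libraries.

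The list of transcription factors and receptors held 16 genes. Of these 11 were higher without overlap (9.02% of all genes) and 12 at an adjusted p under 0.1 (11.6% of all genes). DESeq2 called 12 higher and limma-voom 11, beside 12.9% and 6.6% of all genes. Klf1, the zinc finger factor of late erythroid genes, stood at 523, 552 and 576 CPM against 36.2, 363 and 141 CPM. Gata1, the leading erythroid GATA factor, had a log2 fold change of 2.78 ± 0.74 with an edgeR adjusted p of 0.0776. Nfe2, a leucine zipper factor of the globin locus, stood at 411, 390 and 386 CPM against 39.9, 178 and 80.2 CPM. These 3 late factors did not overlap between the labels.

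Some members differed less, although all 16 had log2 fold changes above 0. Kit, the receptor of early progenitors and mast cells, stood at 36.1, 40.5 and 39.2 CPM under the blood label, against 39.1, 39.3 and 39.0 CPM under the spleen label. Its log2 fold change was 0.28 ± 0.15 (edgeR adjusted p = 0.234), and -0.01 with library size alone. Gata2, a GATA factor of stem and progenitor cells, stood at 18.4, 13 and 14.2 CPM against 14.8, 19.5 and 14.3 CPM. Myb, a factor of proliferating progenitors, had 45.9, 48.7 and 56.4 CPM against 33.8, 52.6 and 39.4 CPM. These genes overlapped between the labels in CPM, and after TMM scaling Kit was higher under the blood label without overlap. Mxi1, a partner of Max, had the smallest p of the list, with a log2 fold change of 1.62 ± 0.30 (edgeR adjusted p = 0.0565). Lmo2, a bridging protein of the erythroid factor complex, had one of 1.45 ± 0.28 (edgeR adjusted p = 0.0575).

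Genes of late red cell maturation, when organelles and the nucleus are lost, held 13270, 14665 and 13290 CPM under the blood label, against 1916, 7550 and 3905 CPM under the spleen label. All 21 tested genes had log2 fold changes above 0, with a median of 2.19, and 20 were higher without overlap, beside 9.02% of all genes. Xpo7, a nuclear exporter, stood at 422, 663 and 372 CPM against 90.9, 158 and 118 CPM (log2 fold change 2.29 ± 0.33, edgeR adjusted p = 0.0565). Bcl2l1, the survival factor Bcl-xL, stood at 376, 363 and 286 CPM against 79.0, 146 and 91.6 CPM. Foxo3, a factor of redox control, stood at 243, 282 and 220 CPM against 87.7, 140 and 116 CPM. Each of the 3 separated the labels, and spleen WT 01 was again the lowest library. DESeq2 called all 21 genes higher and limma-voom 20, beside 12.9% and 6.6% of all genes, while edgeR called 0 at 0.05.

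**Figure D2:**
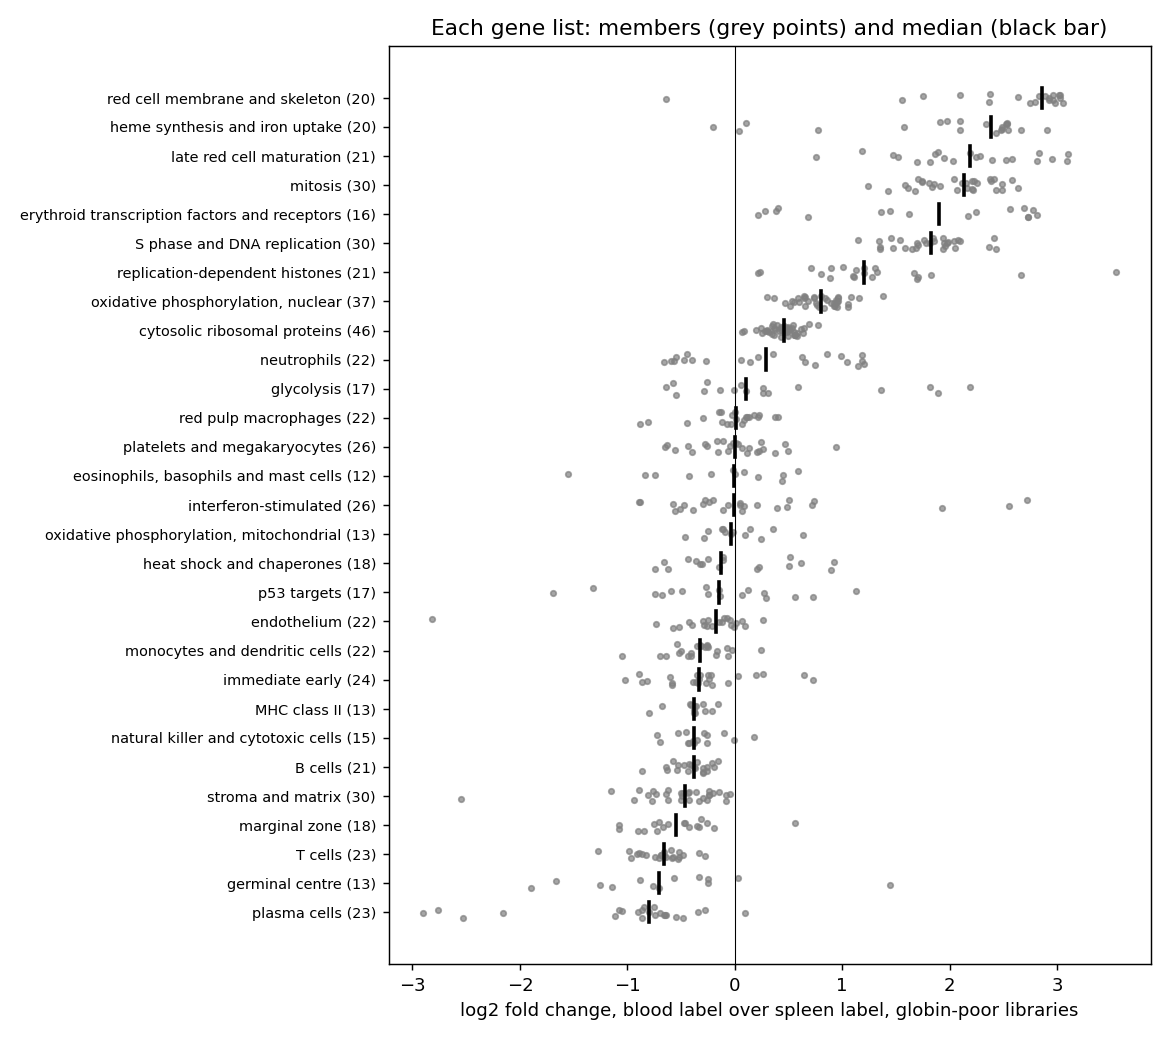
Log2 fold change of each tested member (grey points) and its median (black bar), blood label over spleen label in globin-poor libraries, for 29 gene lists with the number of genes in brackets. Red cell and cell division lists lie to the right, with medians of 2.86 and 2.13 for red cell membrane and mitosis, and plasma cell, germinal centre and T cell lists lie to the left, with medians of -0.80, -0.71 and -0.66. The pancreas and fat lists are not drawn because fold changes of some members rest on levels near 0 in some libraries.

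Cell division genes stood with the red cell genes. Mki67, a protein of chromosomes in dividing cells, had 1173, 1418 and 1305 CPM in the libraries labelled blood, against 144, 722 and 375 CPM in those labelled spleen. Its log2 fold change was 2.49 ± 0.54, with an edgeR adjusted p of 0.0599. The 30 genes of mitosis summed to 6677, 6774 and 7252 CPM against 996, 4411 and 2294 CPM. The spleen-labelled libraries kept the order they had for red cell genes, and none reached a library labelled blood. Of the 30 genes, 29 were higher without overlap (9.02% of all genes) and 29 at an adjusted p under 0.1 (11.6% of all genes). DESeq2 called 30 higher and limma-voom 29, beside 12.9% and 6.6% of all genes. The median log2 fold change was 2.13, and it was 1.24 without spleen WT 01, which leaves the label effect to the KO libraries.

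Kif23, a kinesin of the midbody, had the smallest p of the mitosis list. It stood at 112, 119 and 119 CPM against 28.9, 76.2 and 50.2 CPM (log2 fold change 1.74 ± 0.31, edgeR adjusted p = 0.0565). Bub1b, a spindle checkpoint kinase, stood at 90.0, 102 and 108 CPM against 25.9, 76.9 and 50.8 CPM. Ndc80, a subunit of the outer kinetochore, stood at 39.8, 54.5 and 44.4 CPM against 12.2, 31.3 and 24.6 CPM. These genes separated the labels with a small margin over spleen KO 01.

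The S phase list, which holds DNA polymerases, helicases and nucleotide enzymes, summed to 7040, 6420 and 8160 CPM under the blood label, against 1504, 5932 and 2940 CPM under the spleen label. All 30 genes had log2 fold changes above 0, with a median of 1.83. All 30 had an adjusted p under 0.1, beside 11.6% of all genes higher. Without overlap 21 were higher, beside 9.02% of all genes. Pcna, the sliding clamp of DNA polymerase, stood at 768, 719 and 830 CPM against 197, 611 and 333 CPM. Rfc3, a subunit of the clamp loader, stood at 67.6, 58.3 and 82.5 CPM against 30.9, 62.5 and 40.01 CPM, and overlapped because of spleen KO 01. Cdt1, which licenses replication origins, stood at 240, 185 and 284 CPM against 86.3, 202 and 119 CPM, and overlapped through the same library. DESeq2 called all 30 higher and limma-voom 28, beside 12.9% and 6.6% of all genes.

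Replication-dependent histones, which are made in S phase, gave a weaker picture. Their messages lack a poly(A) tail in dividing cells. The 21 tested genes all had log2 fold changes above 0, with a median of 1.20, and 6 were higher at an adjusted p under 0.1, beside 11.6% of all genes. Hist1h1c, a linker histone, stood at 96.5, 71.5 and 81.8 CPM against 52.0, 65.7 and 66.2 CPM. Hist1h2bc, a histone H2B, stood at 38.5, 25.2 and 33.9 CPM against 15.6, 19.3 and 20.7 CPM. Hist1h1b stood at 2.16, 2.64 and 2.69 CPM against 0.160, 1.42 and 0.524 CPM. The 3 genes did not overlap between the labels.

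Promoter sequence was set beside these lists because their members stood higher together. The window was 250 bases before to 50 after the start of transcription, from RefSeq on GRCm38.p6, and 5 motifs were sought in 4 lists. The motifs, read on both strands, were the GATA box (AGATAA or TGATAA), the CACCC box (CCNCNCCC), the CCAAT box (CCAAT), the cell cycle element CHR (TTTGAA) and the E2F site (TTTCGCGC or TTTGGCGC). One promoter of each list, that of the member with the smallest p, is printed 5′ to 3′ in the direction of transcription with every match in capitals. Ackr1 lies at chr1:173333454-173333753 on the minus strand, Ppox at chr1:171281137-171281436 on the minus strand, Kif23 at chr9:61946750-61947049 on the minus strand and Rfc3 at chr5:151651159-151651458 on the minus strand.
Ackr1: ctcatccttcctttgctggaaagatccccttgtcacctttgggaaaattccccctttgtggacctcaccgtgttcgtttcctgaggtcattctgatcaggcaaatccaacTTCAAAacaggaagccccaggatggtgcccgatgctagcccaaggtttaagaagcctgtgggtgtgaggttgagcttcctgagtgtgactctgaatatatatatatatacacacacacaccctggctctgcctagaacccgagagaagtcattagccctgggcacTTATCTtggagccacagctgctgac
Ppox: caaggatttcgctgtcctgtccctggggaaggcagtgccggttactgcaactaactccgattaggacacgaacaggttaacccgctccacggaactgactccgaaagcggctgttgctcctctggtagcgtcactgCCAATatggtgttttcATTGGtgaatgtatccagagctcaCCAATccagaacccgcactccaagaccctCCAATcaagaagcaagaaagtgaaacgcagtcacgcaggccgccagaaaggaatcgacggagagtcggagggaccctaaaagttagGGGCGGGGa
Kif23: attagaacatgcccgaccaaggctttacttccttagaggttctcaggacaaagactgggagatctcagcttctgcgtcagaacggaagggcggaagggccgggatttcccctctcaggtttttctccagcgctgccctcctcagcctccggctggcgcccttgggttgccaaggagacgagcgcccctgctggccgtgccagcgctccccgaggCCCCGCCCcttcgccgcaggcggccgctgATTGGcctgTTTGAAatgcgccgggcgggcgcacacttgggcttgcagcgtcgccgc
Rfc3: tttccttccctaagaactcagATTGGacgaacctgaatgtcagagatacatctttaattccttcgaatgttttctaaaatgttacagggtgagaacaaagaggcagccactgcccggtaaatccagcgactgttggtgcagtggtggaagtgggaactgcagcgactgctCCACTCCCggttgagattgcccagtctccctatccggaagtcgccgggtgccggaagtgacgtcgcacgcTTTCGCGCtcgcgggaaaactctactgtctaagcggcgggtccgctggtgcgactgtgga

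The CHR element was found in 20 of the 26 mitosis promoters that RefSeq matched (76.9%), beside 18.1% of all 27025 promoters of that length. The CCAAT box was found in 21 of the 26 (80.8%), beside 37.9% of all promoters. E2F sites were found in 8 of 23 S phase promoters (34.8%), beside 0.833% of all. For red cell membrane genes the GATA box was found in 6 of 13 promoters (46.2%), beside 19% of all. For heme and iron genes the CACCC box was found in 13 of 15 (86.7%), beside 49.1%, and the GATA box in 3 of 15 (20%), beside 19%. In Kif23 a CCAAT box read on the minus strand lies just before the CHR element, and in Rfc3 an E2F site lies near the start. The CACCC letters also match many GC-rich stretches. These are matches of letters in a window and were not linked to binding of any factor.

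Antibody genes were lower in level. Immunoglobulin and secretory genes of plasma cells, the antibody factories of spleen and marrow, summed to 10140, 8726 and 7840 CPM in the libraries labelled blood, against 17912, 22902 and 29488 CPM in those labelled spleen. Of 23 genes, 21 were lower without overlap, beside 24.7% of all genes, and 20 were so after TMM scaling, beside 12.2%. The median log2 fold change was -0.80, and -1.11 with library size alone. edgeR called 0 of them at 0.05 and 13 were lower at an adjusted p under 0.1, beside 4.34% of all genes. DESeq2 called 14 lower and limma-voom 6, beside 4.66% and 0.86% of all genes.

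Ighg2c, a constant region of IgG, had the smallest p of that list, with 103, 53.6 and 229 CPM against 420, 1184 and 1442 CPM (log2 fold change -2.16 ± 0.31, edgeR adjusted p = 0.0565). Jchain, which joins IgA and IgM into polymers, stood at 496, 469 and 390 CPM against 946, 1188 and 1507 CPM. Irf4, a factor needed for plasma cells, stood at 43.1, 60.5 and 42.0 CPM against 102, 79.1 and 102 CPM. Mzb1, a chaperone of IgM folding, stood at 97.0, 101 and 91.1 CPM against 196, 188 and 259 CPM. None of these genes overlapped between the labels. IgG classes also varied between the spleen-labelled libraries. Ighg3 had 20.0, 84.2 and 99.3 CPM against 199, 245 and 3375 CPM, so KO 04 alone held most of it. Igha, the IgA constant region, overlapped, with 1896, 1264 and 743 CPM against 2632, 1229 and 2160 CPM.

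T cell genes stood lower with a smaller difference. The list summed to 1504, 1255 and 1345 CPM under the blood label, against 2932, 1900 and 2718 CPM under the spleen label. All 23 genes had log2 fold changes below 0, with a median of -0.66 and -0.97 with library size alone. Of them 21 were lower without overlap, beside 24.7% of all genes, and 16 after TMM scaling, beside 12.2%. Foxp3, the factor of regulatory T cells, stood at 6.34, 6.10 and 3.74 CPM against 16.4, 10.3 and 15.1 CPM (log2 fold change -1.27 ± 0.24, edgeR adjusted p = 0.0565). Icos, a costimulatory receptor, stood at 12.6, 12.8 and 8.06 CPM against 27.2, 19.1 and 26.1 CPM. Cd8a, the coreceptor of cytotoxic T cells, stood at 64.1, 91.0 and 66.4 CPM against 185, 112 and 151 CPM. DESeq2 called 12 of the 23 lower and limma-voom 7, beside 4.66% and 0.86% of all genes, and edgeR called 0 at 0.05.

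B cell genes summed to 12557, 13248 and 11573 CPM under the blood label, against 23846, 16719 and 20515 CPM under the spleen label, and all 21 had log2 fold changes below 0. The median was -0.38, beside -0.03 over all genes, and -0.68 with library size alone, beside -0.33. Of the 21, 9 were lower without overlap, beside 24.7% of all genes, and 3 after TMM scaling, a share close to the 12.2% of all genes. Ighm, the IgM heavy chain that B cells and plasma cells share, stood at 2883, 3086 and 2644 CPM against 5712, 6605 and 7261 CPM. Spib, a factor of mature B cells, had a log2 fold change of -0.64 ± 0.20, and Cd72, an inhibitory coreceptor, one of -0.53 ± 0.18.

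The marginal zone, the rim of the white pulp, had a median of -0.55 over 18 genes, of which 7 were lower without overlap, beside 24.7% of all genes. After TMM scaling 4 were lower, beside 12.2%, and 1 was higher. Cxcl13, the chemokine that draws B cells into follicles, stood at 58.9, 97.1 and 44.3 CPM under the blood label, against 213, 92.0 and 126 CPM under the spleen label. S1pr3, a receptor for a lipid signal that positions marginal zone B cells, stood at 29.9, 47.8 and 30.8 CPM against 92.3, 43.5 and 66.8 CPM. Both overlapped through blood WT 04 and spleen KO 01. Germinal centre genes had a median of -0.71 over 13 genes. Of these 9 were lower without overlap, beside 24.7% of all genes, or 7 after TMM scaling, beside 12.2%. S1pr2, which confines B cells to germinal centres, stood at 3.81, 3.24 and 4.98 CPM against 11.1, 8.50 and 15.3 CPM. Fas, a death receptor of germinal centre B cells, stood at 6.89, 10.1 and 7.27 CPM against 19.03, 12.4 and 21.1 CPM. The sum of that list went the other way, 473, 582 and 501 CPM against 355, 423 and 439 CPM. Lmo2, which erythroid cells also express, was its most abundant member, at 355, 439 and 373 CPM against 132, 261 and 188 CPM.

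Natural killer genes had a median of -0.38 over 15 genes, 5 of them lower without overlap, a share close to the 24.7% of all genes, and 0 at an adjusted p under 0.1. The 3 with the smallest p were Eomes, Klrk1 and Nkg7, with log2 fold changes of -0.72 ± 0.26, -0.45 ± 0.17 and -0.39 ± 0.16. MHC class II genes, which present antigen, had a median of -0.38 over 13 genes. H2-Eb2 stood at 30.8, 34.2 and 21.9 CPM under the blood label, against 66.5, 35.8 and 47.2 CPM under the spleen label, and H2-DMb1 and Ctss overlapped. Monocyte and dendritic cell genes had a median of -0.32 over 22 genes, with Fn1 at -0.64 ± 0.17, Ccr9 at -0.70 ± 0.21 and Flt3 at -0.54 ± 0.17.

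Red pulp macrophage genes did not separate the labels. Their sums were 2333, 2532 and 1795 CPM under the blood label, against 2701, 1873 and 2810 CPM under the spleen label. The median log2 fold change over 22 genes was 0.01, and -0.29 with library size alone. Timd4, a receptor by which macrophages bind dying cells, was the sole gene of the list without overlap in CPM. Over all genes 9.02% were higher and 24.7% lower in that sense. Timd4 stood at 22.1, 29.1 and 17.8 CPM against 53.2, 34.1 and 44.5 CPM (log2 fold change -0.80 ± 0.16, edgeR adjusted p = 0.0575). Slc40a1, the iron exporter ferroportin, stood at 160, 206 and 161 CPM against 152, 156 and 193 CPM. After TMM scaling Slc40a1, Spic and the heme-degrading enzyme Hmox1 were higher without overlap, opposite to Timd4. These 3 of 22 are a share close to the 15.3% of all genes that were higher after that scaling. Marco, a scavenger receptor of marginal zone macrophages, stood at 61.4, 54.8 and 58.7 CPM against 110, 60.5 and 115 CPM.

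Stroma and matrix genes, which form the capsule and the fibre net, all had log2 fold changes below 0. The median over 30 genes was -0.46, and 11 were lower without overlap, beside 24.7% of all genes, or 5 after TMM scaling, a share close to the 12.2% of all genes. Their sums overlapped, with 2588, 2964 and 2127 CPM under the blood label, against 4491, 2905 and 3734 CPM under the spleen label. Col6a1, a collagen VI chain, stood at 29.0, 36.8 and 17.9 CPM against 70.3, 39.99 and 52.7 CPM (log2 fold change -0.94 ± 0.17, edgeR adjusted p = 0.0565). Lum, a proteoglycan of collagen fibres, stood at 0.643, 0.341 and 0.396 CPM against 4.33, 1.02 and 3.67 CPM. Endothelial genes had a median of -0.18 over 22 genes. Lyve1, a hyaluronan receptor of lymph vessels and some macrophages, stood at 0.597, 1.07 and 1.23 CPM against 16.0, 0.547 and 8.79 CPM, low in spleen KO 01 as in the libraries labelled blood. Cdh5, the endothelial cadherin, and Kdr, a receptor for vascular growth factor, had log2 fold changes of -0.52 ± 0.22 and -0.40 ± 0.19.

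Granulocytes and platelets showed no common direction. Neutrophil genes had a median of 0.29 over 22 genes, and -0.02 with library size alone, with 0.81 between WT libraries and -0.35 between KO libraries, as values with no test. Retnlg, Lyz2 and Padi4, of mature neutrophils and macrophages, had log2 fold changes of -0.57 ± 0.15, -0.66 ± 0.23 and -0.60 ± 0.22. Eosinophil, basophil and mast cell genes had a median of -0.01 over 12 genes. Cpa3, a mast cell protease, stood at 0.276, 0.981 and 0.837 CPM under the blood label, against 3.73, 1.75 and 1.73 CPM under the spleen label. Hdc, the histamine-making enzyme, and Ms4a2, a chain of the IgE receptor, overlapped.

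Platelet and megakaryocyte genes had a median of 0.00 over 26 genes, with 13 log2 fold changes above 0 and 13 below. They summed to 827, 741 and 559 CPM under the blood label, against 859, 871 and 957 CPM under the spleen label. In CPM the sums were thus lower in every library labelled blood. Gp9, part of the receptor for von Willebrand factor, stood at 28.2, 21.9 and 22.4 CPM against 12.6, 20.8 and 15.5 CPM. Nbeal2, needed for platelet granules, stood at 48.1, 75.5 and 51.8 CPM against 114, 85.8 and 116 CPM. These genes did not overlap and lay in opposite directions. Vwf, von Willebrand factor itself, overlapped, with a log2 fold change of 0.47 ± 0.19.

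Genes of neighbouring tissues varied by library rather than by label alone. Pancreas genes summed to 52.6, 125 and 700 CPM in the libraries labelled blood, against 15.5, 37.6 and 30.6 CPM in those labelled spleen. Of these sums Cela1, an elastase that other tissues express too, held 48.8, 49.5 and 117 CPM, against 11.1, 34.8 and 25.6 CPM. It made most of every sum except those of blood WT 04 and KO 04. Prss2, a trypsinogen, stood at 0.0918, 8.74 and 49.5 CPM against 0.0401, 0.146 and 0.363 CPM. Cel, a lipase of pancreatic juice, stood at 0.0459, 3.11 and 20.0 CPM against 0, 0.0365 and 0.0807 CPM. Blood KO 04 held most of these messages, blood WT 04 held some, and blood WT 03 was near the spleen-labelled libraries. The hormone genes Ins1, Ins2 and Gcg lay at 0 to 0.132 CPM in every one of the 6 libraries. Fitted fold changes of enzymes at 0 under the spleen label depend on the prior count and are not given.

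Fat genes had the opposite pattern. They summed to 204, 242 and 276 CPM under the blood label, against 806, 181 and 801 CPM under the spleen label. Adipoq, the fat cell hormone adiponectin, stood at 0.781, 0.512 and 3.43 CPM against 30.2, 0.401 and 32.1 CPM. Plin4, a coat protein of lipid droplets, stood at 0.459, 0.810 and 1.497 CPM against 18.5, 0.693 and 15.4 CPM. Lep, leptin, stood at 0.0459, 0 and 0.0881 CPM against 1.92, 0.0365 and 2.10 CPM. Spleen KO 01 was as low as the libraries labelled blood, so the labels overlapped for each of the 3 genes. Acsl1, an acyl-CoA synthetase that is not confined to fat, was higher without overlap, at 68.5, 111 and 78.4 CPM against 26.2, 60.5 and 46.8 CPM. The part of pancreas and fat RNA in the other results was not tested.

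Housekeeping lists differed in their degree. Nuclear genes of oxidative phosphorylation, the mitochondrial respiratory chain, had log2 fold changes above 0 for all 37, with a median of 0.80, or 0.50 with library size alone. None of the 37 separated the labels, however. Ndufb9, a subunit of complex I, stood at 235, 147 and 238 CPM under the blood label, against 79.7, 155 and 98.8 CPM under the spleen label. Cox6a1, a subunit of cytochrome oxidase, stood at 742, 449 and 740 CPM against 322, 485 and 346 CPM, and Cox7a2 had a log2 fold change of 1.05 ± 0.28. Blood WT 04 lay below spleen KO 01 for Ndufb9 and Cox6a1. edgeR called 0 of the 37 at 0.05. An unadjusted p under 0.05 was found for 34, beside 29.7% of all genes in either direction. DESeq2 called 22 higher, beside 12.9% of all genes, and limma-voom 1, beside 6.6%. The 13 chain genes encoded in mitochondrial DNA had a median of -0.03. Of them 5 were lower without overlap in CPM, beside 24.7% of all genes. After TMM scaling 0 were lower and 1, mt-Nd3, was higher, beside 12.2% and 15.3% of all genes. The 3 with the smallest p, mt-Nd3, mt-Atp8 and mt-Co2, overlapped between the labels in CPM.

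Cytosolic ribosomal protein genes had log2 fold changes above 0 for all 46, with a median of 0.46, or 0.15 with library size alone, and 0 separated the labels. Rps2 stood at 2246, 1609 and 2507 CPM under the blood label, against 1399, 2116 and 1452 CPM under the spleen label, and Rpl28 and Rps23, of the large and the small subunit, overlapped likewise. Sums were 49183, 34983 and 48343 CPM against 41062, 42080 and 36728 CPM, with blood WT 04 the lowest of all 6 libraries. edgeR and limma-voom called 0 of the 46, and DESeq2 called 1, beside 12.9% of all genes higher with DESeq2. An unadjusted p under 0.05 was found for 2, beside 29.7% of all genes in either direction. Glycolysis had a median of 0.11 over 17 genes. Without overlap 1 was higher and 7 were lower, beside 9.02% and 24.7% of all genes. After TMM scaling the counts were 2 and 3, beside 15.3% and 12.2% of all genes. Slc16a1, a lactate carrier, stood at 329, 397 and 342 CPM against 78.7, 240 and 134 CPM, and Hk1, the hexokinase of red cells, at 267, 375 and 334 CPM against 104, 295 and 165 CPM. Lower were Slc2a1, given above, and Pfkp, a phosphofructokinase, at 43.0, 52.4 and 46.8 CPM against 94.3, 65.0 and 94.1 CPM.

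Stress and signalling lists gave single genes. The interferon-stimulated list had a median of -0.01 over 26 genes, with 4 higher and 1 lower at an adjusted p under 0.1, beside 11.6% and 4.34% of all genes. Oas3, a sensor of double-stranded RNA, stood at 118, 127 and 97.1 CPM under the blood label, against 29.0, 53.7 and 29.6 CPM under the spleen label. Isg15, a ubiquitin-like modifier, stood at 224, 212 and 162 CPM against 25.9, 86.9 and 28.1 CPM. Xaf1, a proapoptotic interferon target, stood at 31.3, 33.5 and 25.6 CPM against 71.2, 60.0 and 60.8 CPM. All 3 separated the labels, with Xaf1 in the other direction. The classical interferon targets Ifit1, Ifit3 and Mx1 overlapped.

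Immediate early genes had a median of -0.33 over 24 genes, with Fos at 5.88, 5.54 and 4.84 CPM under the blood label, against 15.5, 7.48 and 11.1 CPM under the spleen label. Egr2, a zinc finger factor of the same class, had a log2 fold change of -1.03 ± 0.30. Btg2, an antiproliferative gene of both the immediate early and the p53 list, went the other way, at 433, 426 and 433 CPM against 334, 313 and 302 CPM. Targets of p53 had a median of -0.15 over 17 genes, with Pmaip1, the death gene Noxa, at -0.74 ± 0.17 and Sesn2, a sestrin, at 0.56 ± 0.18. Heat shock genes had a median of -0.13 over 18 genes, where Hspa4l stood at 47.8, 67.5 and 52.0 CPM against 33.4, 39.3 and 35.5 CPM. Dnajb1 and Hsp90aa1, which overlapped, had log2 fold changes of 0.50 ± 0.16 and 0.89 ± 0.30.

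None of the 9 called genes belonged to the red cell or cell division lists. Cela1, an elastase of the pancreas list that other tissues express too, rose to 48.8, 49.5 and 117 CPM in the libraries labelled blood, against 11.1, 34.8 and 25.6 CPM in those labelled spleen (log2 fold change 2.34 ± 0.20, edgeR adjusted p = 0.0301). Zg16, a lectin of secretory granules in the same list, rose to 2.07, 3.58 and 15.9 CPM, against 0.0401, 0.949 and 1.61 CPM (log2 fold change 4.42 ± 0.48, edgeR adjusted p = 0.0452). Both were highest in blood KO 04, as were Prss2 and Cel. Cela1 was alike in blood WT 03 and WT 04, however, where Prss2 stood at 0.0918 and 8.74 CPM. The source of either message was not tested.

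Hist3h2ba is a histone H2B gene on chromosome 11 (58948920 to 58949533, plus strand, GRCm38). It rose to 18.1, 16.1 and 20.4 CPM, against 1.92, 4.41 and 3.59 CPM (log2 fold change 3.02 ± 0.29, edgeR adjusted p = 0.0301). Zfp39 is a zinc finger gene nearby on chromosome 11 (58888153 to 58904225, minus strand). It rose to 21.7, 29.3 and 22.9 CPM, against 4.49, 7.73 and 7.54 CPM (log2 fold change 2.32 ± 0.26, edgeR adjusted p = 0.0452). Fgfbp3, a carrier of fibroblast growth factors on chromosome 19 (36917550 to 36919615, minus strand), rose to 14.7, 19.8 and 18.0 CPM, against 4.29, 5.40 and 5.36 CPM (log2 fold change 2.16 ± 0.21, edgeR adjusted p = 0.0301). Arhgef12 is a guanine nucleotide exchange factor on chromosome 9 (42963842 to 43107239, minus strand). It rose to 176, 165 and 184 CPM, against 72.3, 83.9 and 82.5 CPM (log2 fold change 1.49 ± 0.17, edgeR adjusted p = 0.0452). All 4 showed no overlap. Among the spleen-labelled libraries each was lowest in WT 01 and highest in KO 01, the order of the red cell genes.

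The other 3 called genes lie outside the naming rule and were chosen after their values were seen. Gm10603 on chromosome 7 is annotated as antisense and overlaps C2cd3 and Ucp3, so without a known strand setting its reads cannot be told from theirs. It rose to 25.9, 28.3 and 21.9 CPM, against 8.97, 9.16 and 8.27 CPM (log2 fold change 1.75 ± 0.19, edgeR adjusted p = 0.0452). Igkv4-53, a kappa light chain segment, fell to 3.77, 4.82 and 5.59 CPM, against 19.1, 32.9 and 31.7 CPM. Its log2 fold change was -2.05 ± 0.20 (edgeR adjusted p = 0.0301). Without blood WT 04, without spleen WT 01 or without spleen KO 04, each of Cela1, Zg16, Hist3h2ba, Zfp39, Fgfbp3, Arhgef12, Gm10603 and Igkv4-53 had an adjusted p above 0.05.

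Gm8797 was the gene with the smallest p and remained below 0.05 without any 1 library. It fell to 1.47, 1.96 and 1.32 CPM in the libraries labelled blood, against 52.1, 52.7 and 43.5 CPM in those labelled spleen (log2 fold change -4.75 ± 0.23, edgeR adjusted p = 0.000685). The globin-rich libraries showed the same direction at another level, with 18.9, 21.6 and 19.9 CPM under the blood label, against 262, 194 and 205 CPM under the spleen label. Gm8797 is a gene model of 490 bases on chromosome 3 (5750806 to 5751295, plus strand, GRCm38). Its transcript matched Ubb, a polyubiquitin gene on chromosome 11, at 98.2% over 384 bases and the pseudogene Gm1821 at 98.7% over 392 bases. Reads may be divided among such copies, so its value is uncertain. Ubb stood at 895, 861 and 838 CPM under the blood label, against 643, 633 and 608 CPM under the spleen label in globin-poor libraries. In globin-rich ones it overlapped, with 6997 to 7571 CPM against 5032 to 7392 CPM. Gm1821 had the direction of Gm8797, at 8.72, 11.9 and 9.51 CPM against 17.0, 19.3 and 20.3 CPM in globin-poor libraries. In globin-rich ones Gm1821 held 134 to 174 CPM against 194 to 275 CPM. The division of reads was not tested.

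**Figure D3:**
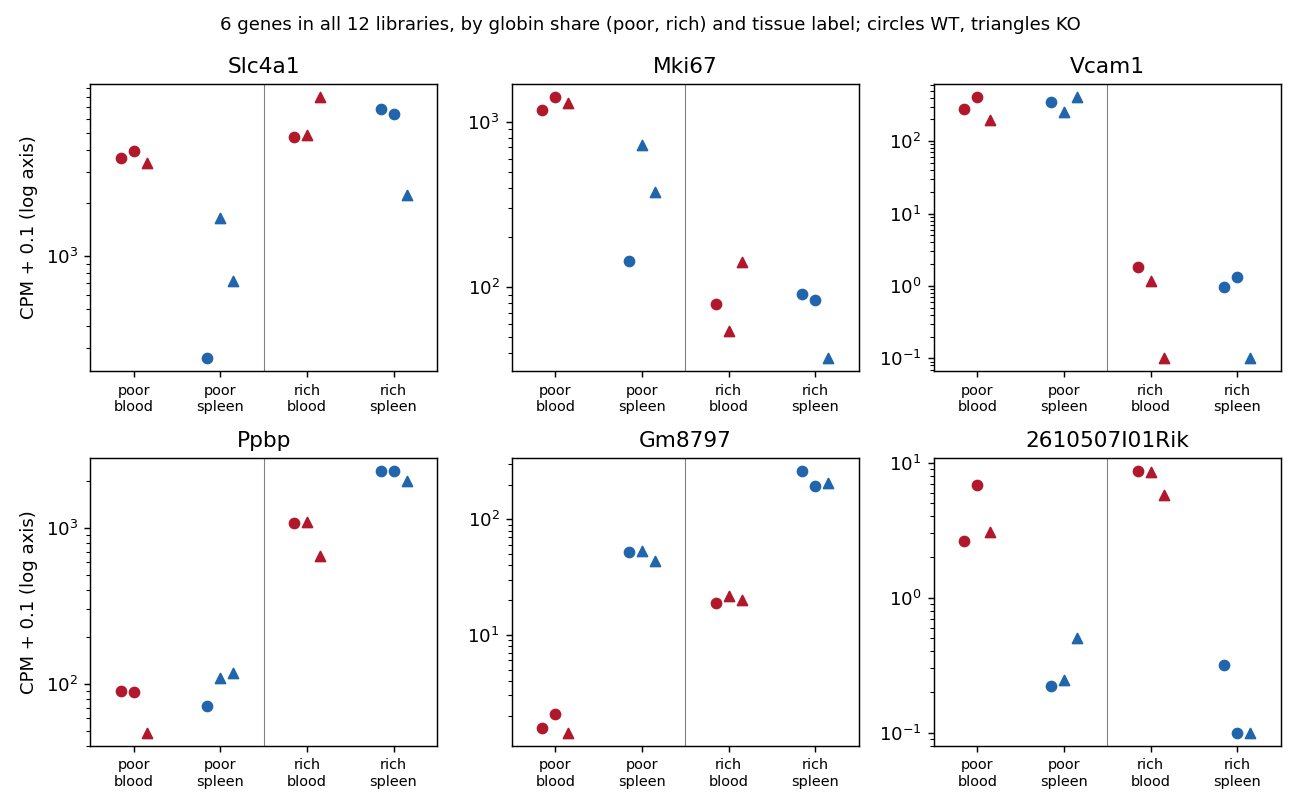
Levels of 6 genes (CPM + 0.1, globin left out, log axis) in all 12 libraries, grouped by globin share (poor or rich) and tissue label, with blood in red, spleen in blue, WT as circles and KO as triangles. Slc4a1 and Mki67 separate the labels in globin-poor libraries only, Vcam1 and Ppbp separate poor from rich, and Gm8797 and 2610507I01Rik separate the labels in both kinds.

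The label could also be followed across both kinds of library. Since the globin-poor libraries labelled blood carry spleen markers and the globin-rich ones labelled spleen lack them, this follows the label and does not compare blood with spleen tissue. Of 19122 genes, 25 (0.131%) had all 6 libraries labelled blood on 1 side of all 6 labelled spleen, with 10 higher (0.0523%) and 15 lower (0.0784%). The genotypes separated in the same sense for 5 genes (0.0261%). These counts use levels, carry no test and were computed after earlier results were known. On chromosome 11 lay 7 of the 25 (28%), beside 8.05% of the genes measured. They were Cpeb4, Lyrm7, Igtp, 2610507I01Rik, Nlrp1b, Actg1 and Cd7. The levels are CPM without TMM scaling. After that scaling Igtp, Nlrp1b and Actg1 overlapped between the labels in the globin-poor libraries. Cpeb4, Lyrm7, 2610507I01Rik and Cd7 remained without overlap there. Within globin-poor libraries the labels separated for 30.7% of these genes, and within globin-rich ones for 9.09%. Where they separated in both kinds in the same direction (1.23% of genes), 33 of 236 genes lay on chromosome 11 (14%), and 19 of 236 lay within 20 Mb of Myo1c (8.05%), beside 3.23% of the genes measured. Where the direction was opposite (1.85% of genes), 36 of 354 genes lay on chromosome 11 (10.2%) and 17 of 354 within the window (4.8%). The window held 3.9% of the genes that separated in globin-poor libraries and 3.91% of those that did so in globin-rich ones. The window was chosen after the values were seen.

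The transcript 2610507I01Rik, on chromosome 11 (59199836 to 59202385, minus strand), stood at 2.53, 6.70 and 2.95 CPM under the blood label, against 0.120, 0.146 and 0.403 CPM under the spleen label in globin-poor libraries. In globin-rich libraries it stood at 8.58, 8.40 and 5.63 CPM under the blood label, against 0.218, 0 and 0 CPM under the spleen label. Ccdc92b, on chromosome 11 (74619605 to 74641516, plus strand), stood at 44.6, 69.0 and 36.1 CPM under the blood label, against 0.801, 2.66 and 1.09 CPM under the spleen label in globin-poor libraries. In globin-rich libraries Ccdc92b overlapped, with 18.0, 8.76 and 10.9 CPM against 9.14, 1.95 and 0.183 CPM. Igtp, an interferon-inducible GTPase, stood at 66.9, 72.3 and 46.9 CPM against 95.9, 116 and 85.0 CPM in globin-poor libraries. There, in CPM, the first pair were higher and Igtp was lower under the blood label without overlap. Igtp overlapped after TMM scaling in globin-poor libraries. All were chosen after their values were seen.

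In a fit of all 12 libraries, the label effect was estimated in each kind. The globin-poor label effect was called for 134 genes higher (0.701%) and 21 lower (0.11%), and the globin-rich one for 16 higher (0.0837%) and 133 lower (0.696%). The lists shared 7 genes, which is 4.52% of the globin-poor and 4.7% of the globin-rich calls. Xaf1, Ide, 2610507I01Rik and Gm8797 had the same direction in both kinds. Ide, the insulin-degrading enzyme, had 86.1, 97.1 and 90.8 CPM under the blood label, against 39.4, 54.3 and 57.6 CPM under the spleen label in globin-poor libraries, and 29.5, 35.9 and 25.2 CPM against 10.9, 6.84 and 18.1 CPM in globin-rich ones. Ache, Ubap1 and Arhgef39 had opposite directions, and Arhgef39 held only 0 to 9 counts in any globin-rich library.

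The difference between the label effects, globin-poor minus globin-rich, was called for 25 genes higher (0.131%) and 4 lower (0.0209%) of 19122. Kif23 differed by 2.53 ± 0.43 on the log2 scale (edgeR adjusted p = 0.0278), and its globin-rich libraries had 7.55, 6.97 and 6.57 CPM under the blood label, against 5.00, 7.33 and 19.01 CPM under the spleen label. Hist1h1c differed by 2.30 ± 0.36 (edgeR adjusted p = 0.026), and its globin-rich libraries had 324, 370 and 269 CPM against 785, 773 and 812 CPM. Its direction was thus opposite in the kinds, higher under the blood label in globin-poor libraries and lower in globin-rich ones. List medians differed as well. The red cell membrane median was 2.86 in globin-poor and -0.33 in globin-rich libraries, and mitosis had 2.13 and -0.07. Platelets had 0.00 and -1.23, and plasma cells -0.80 and -0.05. These globin-poor medians are from the fit of globin-poor libraries alone, and the globin-rich ones from the fit of both kinds together. The members of a pair are therefore not to be subtracted. In the fit of both kinds, the median difference was 2.59 for red cell membrane and 1.87 for mitosis. It was 1.19 for platelets and -1.03 for plasma cells. For the red cell membrane list the difference was called for 0 of 20 genes, and for mitosis for 1 of 30. The count of 25 was 948 with DESeq2, 2 with limma-voom and 2 with library size alone.

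**Figure D4:**
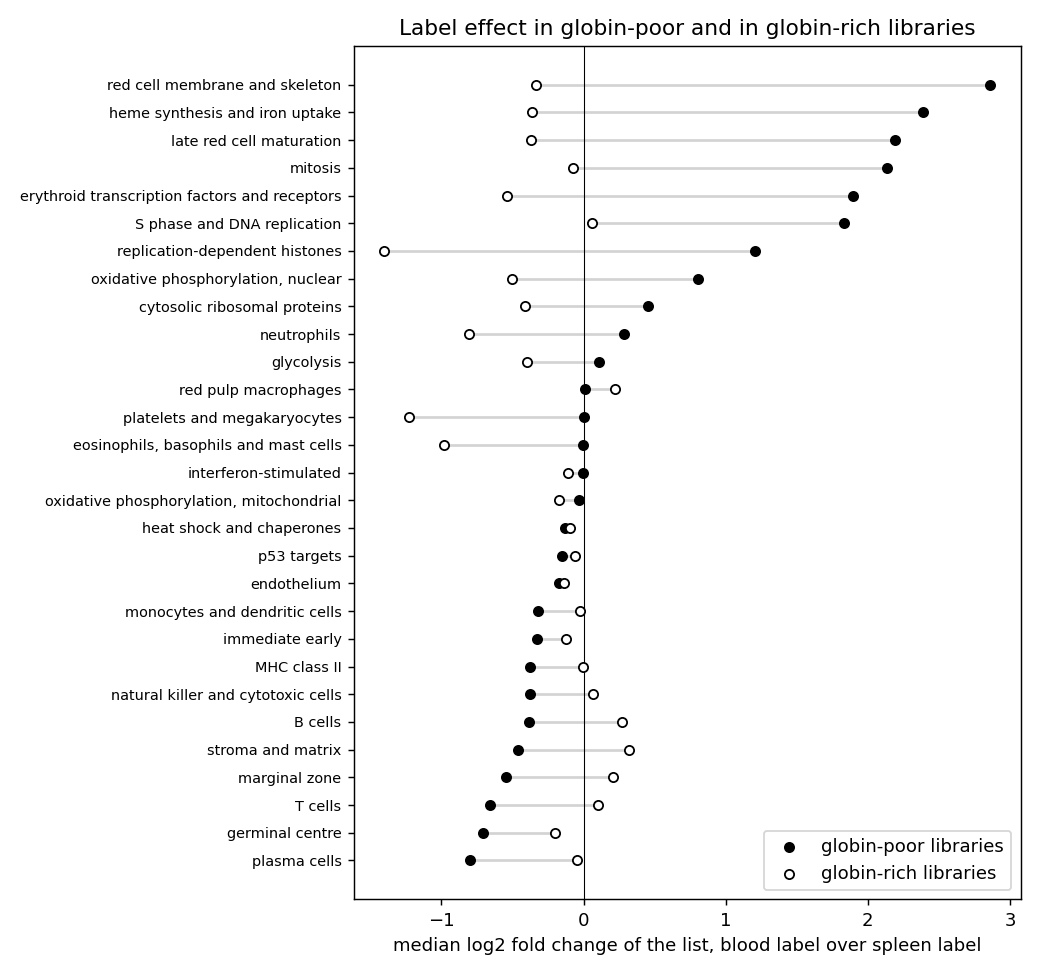
Median log2 fold change of each of 29 gene lists, blood label over spleen label, in globin-poor libraries (filled) and in globin-rich libraries (open). Filled values are from the fit of globin-poor libraries alone and open values from the fit of both kinds together. Their distance is therefore not a fitted difference. Red cell membrane lies at 2.86 in globin-poor and -0.33 in globin-rich libraries and platelets at 0.00 and -1.23. Endothelium and heat shock lists lie close together as drawn. In the fit of both kinds their median differences, globin-poor minus globin-rich, were -0.31 and 0.08.

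Genotype was carried as a covariate because the blood label holds 2 WT and 1 KO libraries and the spleen label 1 WT and 2 KO. Myo1c, on chromosome 11 (75650504 to 75673910, plus strand), stood at 163, 219 and 150 CPM under the blood label, against 180, 134 and 170 CPM under the spleen label. Its log2 fold change was 0.33 ± 0.17 (edgeR adjusted p = 0.228). A gene-level count sums all forms of Myo1c and does not check the loss of NM1. The interaction of label and genotype was called for 0 of 18133 genes by edgeR, with 588 at an unadjusted p under 0.05 (3.24%), while DESeq2 called 1 higher and 32 lower and limma-voom 0. Without spleen KO 04 edgeR called 38 higher and 343 lower, and without spleen KO 01 it called 8 and 27. The count thus depends on the setting, and 2 of the 4 combinations of label and genotype hold 1 library each. Spleen WT 01 is the sole WT library labelled spleen, and the WT value of every list rests on it.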

How the data were processed

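Gene counts of the 12 libraries were deposited by the authors as raw whole-number counts for 46603 Ensembl identifiers. Per the labels' protocols, 500 ng of RNA entered a NEBNext Ultra II preparation sequenced on a NextSeq. Per the submitters' processing notes, the build was GRCm38 (mm10) and the tools included HISAT2 2.0.4, HTSeq, SAMtools 0.1.19, FastQC and Trimmomatic 0.36. Strand setting and release of the annotation are not given in the sources used here. Symbols and positions came from GENCODE vM21, which matched 46091 identifiers, and 683 of 686 gene list entries were matched.

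Globin genes were removed, then genes were filtered with filterByExpr, scaled by TMM and tested with edgeR 4.0.16 (quasi-likelihood, robust dispersions, terms genotype and label) in R 4.3.3. P-values were adjusted by Benjamini-Hochberg over all genes tested, with a threshold of 0.05. The standard error of a log2 fold change was its size divided by the square root of F. Levels are CPM with globin left out. DESeq2 1.42.0, limma 3.58.1 (voom), other scalings and filters, and omission of each library were alternatives. The difference between kinds came from 1 fit of all 12 libraries with kind, label, their interaction and genotype. The procedure was tested on simulated data with 200 altered genes. No pair of globin-poor libraries agreed within sampling noise, with chi-square per degree of freedom at 16.4 or more.

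The members and gene lists were chosen with earlier results of these data known. Named genes were Myo1c, Slc4a1, Mki67, up to 12 called genes in each direction with a mean of at least 1 CPM and no overlap (gene models, pseudogenes and receptor segments left out), and the 3 members of each list with the smallest p. Other genes named were chosen after their values were seen. Results for some genes are not reported here.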

Additional observations from a re-analysis of the deposited data

Results flagged for a closer look

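Label effects that differed between globin-poor and globin-rich libraries, tested as an interaction in edgeR over 19122 genes, drew attention to 6 genes named here. Each value is the label effect in globin-poor minus that in globin-rich libraries, on the log2 scale. Kif23, the midbody kinesin, differed by 2.53 (adjusted p = 0.0278). Hist1h2bc and Hist1h1c, both histone genes, differed by 2.09 (adjusted p = 0.0324) and 2.30 (adjusted p = 0.026). Gp9, of the platelet receptor for von Willebrand factor, differed by 2.12 (adjusted p = 0.0413). Arhgef39, a guanine nucleotide exchange factor, differed by 6.83 (adjusted p = 0.026), and Ache, acetylcholinesterase, differed by 4.04 (adjusted p = 0.026). Ache and Arhgef39 were called in both kinds with opposite signs, at 1.99 and 1.94 in globin-poor and -2.05 and -4.90 in globin-rich libraries. In globin-rich libraries Arhgef39 held 1, 0 and 0 counts under the blood label, against 8, 4 and 9 under the spleen label. Its globin-rich value and its difference of 6.83 therefore rest on few counts. Groups of 3 libraries are too small for a check of single outlying samples.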

How the results depend on the processing

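With edgeR, counts of called genes moved strongly with the setting. For the label test (7 higher and 2 lower), DESeq2 gave 2077 and 751, limma-voom 1129 and 147, no filter 1016 and 371, an adjusted p under 0.1 1976 and 742, all 12 libraries 134 and 21, label as the only term 13 higher, DESeq2 size factors, globin kept and a 5 CPM filter 3 higher each, library size only 2 higher and non-robust dispersions 4 higher. Leaving out 1 library gave 0 to 2029 higher and 1 to 520 lower. For label by genotype (0 and 0), DESeq2 gave 1 and 32, no filter 8 and 166, and leaving out 1 library 0 to 38 and 0 to 343. Without spleen WT 01 or blood KO 04 that term could not be fitted. For globin-poor against globin-rich (25 and 4), DESeq2 gave 948 and 404, limma-voom 2 and 0, no filter 752 and 97, library size only 2 and 0, globin kept 29 and 2, the 5 CPM filter 11 and 2, non-robust dispersions 16 and 1, and leaving out 1 library 0 to 596 and 0 to 270. The cause was not tested. Among values of single genes under an alternative, 18 changed sign, 51 lost their call and 331 were called that the test as reported did not call. Log2 fold changes that changed sign when 1 library was left out ranged from -2.47 to 0.21 for Ms4a2, -0.47 to 0.27 for Vcam1 (with 0.10 without spleen KO 04), -0.54 to 0.54 for Pf4 (with -0.28 without blood WT 03), -0.96 to 0.59 for Ppbp, -0.65 to 0.090 for Madcam1, -0.17 to 0.028 for Stab2 and -0.33 to 0.075 for Actg1 (with 0.0062 without blood WT 04). Label as the only term turned Vcam1 (0.074). Library size only turned Spic (-0.12), Kit (-0.014) and Pf4 (-0.28), and Pf4 also turned with globin kept (-0.0027), the 5 CPM filter (-0.039), limma-voom (-0.0064) and all 12 libraries (-0.034). Gm8797 stayed called under all 17 alternatives, between -5.04 and -4.65. The adjusted p under 0.1, the scaled overlap and the alternatives for the interaction terms were added after the data were seen. No paired analysis was possible because, for the label test in globin-poor libraries, the groups compared share only 1 replicate number. Over all 12 libraries 4 genotype and number pairs are shared, and residuals of same-numbered libraries correlated at -0.41 (WT 01), -0.091 (WT 04), 0.36 (KO 03) and 0.44 (KO 04), so the numbers were not taken to pair them. With the replicate block, on 1 residual degree of freedom, the globin-poor against globin-rich difference was called for 60 genes higher and 31 lower. Depth limits genes below the 3-count level, which is 0.109 to 0.138 CPM in globin-poor and 0.515 to 0.733 CPM in globin-rich libraries. The 3 libraries a label limit every test.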
